A study of Mus musculus with 6 samples.

Results

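The genes described here are 10 genes of the Trem2 pathway and of the microglia that gather at β-amyloid plaques, namely Trem2, Tyrobp, Cst7, Itgax, Clec7a, Axl, Lpl, Spp1, Cd68 and Mpeg1. They were read from the probe sets of an Affymetrix mouse Clarion S array whose platform annotation carries their symbol. Of the 10 genes, 7 had such a probe set, 1 each, among the 22206 probe sets tested, of which 19572 carry a single gene symbol. Clec7a, the β-glucan receptor Dectin-1, Spp1, the secreted glycoprotein osteopontin, and Cd68, a lysosomal glycoprotein of phagocytes, had no probe set named in the annotation used and were not analysed here. The RNA came from the olfactory bulbs (OBs) of female mice of 18 months. There were 3 Tg2576 mice, which express the Swedish double mutant of the human amyloid precursor protein from a hamster prion promoter, and 3 wild-type (WT) littermates, with 1 array per mouse. The comparison asks how the transgene changes the OB at a late plaque stage.

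TREM2 is a lipid-sensing receptor on the surface of microglia. It signals through the adaptor TYROBP, also called DAP12, which recruits the kinase SYK. In mouse models of amyloid deposition, microglia in contact with plaques are known to raise a shared set of genes for phagocytosis, lysosomal function and lipid handling, and the later step of that switch needs Trem2. In whole OB tissue a lower level from fewer cells and one from less RNA per cell cannot be told apart, and the same holds for higher levels.

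Values are log2 expression after RMA (robust multi-array average), and a difference is Tg2576 minus WT on that scale. A probe set was called at an unadjusted p under 0.01 in limma, a linear model that moderates each variance by those of all probe sets, together with a fold over 1.3 (log2 0.38) or under 0.7 (log2 -0.51). Array medians lay between 8.18 and 8.22, Pearson's r between arrays was 0.992 to 0.995, and the medians of 5222 negative control probe sets lay between 6.78 and 6.91. An exact permutation test of 3 mice against 3 cannot go below p = 0.1, and the few arrays per genotype limit how precise any value can be. Levels of cell markers were set beside the negative controls. All 7 genes of mitral and tufted cells, the output neurons of the OB, lay above the median of the negative controls in every array. So did all 16 homeostatic microglia genes measured, and 15404 of the 22206 probe sets tested. With so large a share over all probe sets, this does not test the identity of the tissue.

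None of the 7 measured genes passed the thresholds in either direction with limma or with limma-trend, and 1 of them, Mpeg1, had an unadjusted p under 0.05. Over all probe sets, limma called 0.797% in either direction (0.698% as higher), limma-trend called 0.887%, and 8.54% had an unadjusted p under 0.05. At that background a count of 0 among 7 genes does not set them apart. The median difference of the 7 genes was 0.13, against -0.0049 over all probe sets, with 5 genes above 0 and 2 below. This median was 0.053 without WT replicate 2, 0.067 without Tg2576 replicate 3 and 0.083 without WT replicate 1. Marker lists of other cells, described below, had higher medians. They were 0.90 for the olfactory mucosa, 0.34 for olfactory sensory neurons, 0.31 for oligodendrocytes, 0.24 for astrocytes and 0.23 for ensheathing glia. Endothelium and mitral and tufted cells each had 0.18. In 2 genes, Mpeg1 and Axl, the 3 Tg2576 arrays all lay above the 3 WT arrays, an arrangement found in 7.03% of all probe sets. After Benjamini-Hochberg adjustment, 0 of the 22206 probe sets stood at a 5% false discovery rate in limma, where 1896 had an unadjusted p under 0.05, and 9 in limma-trend.

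**Figure D1:**
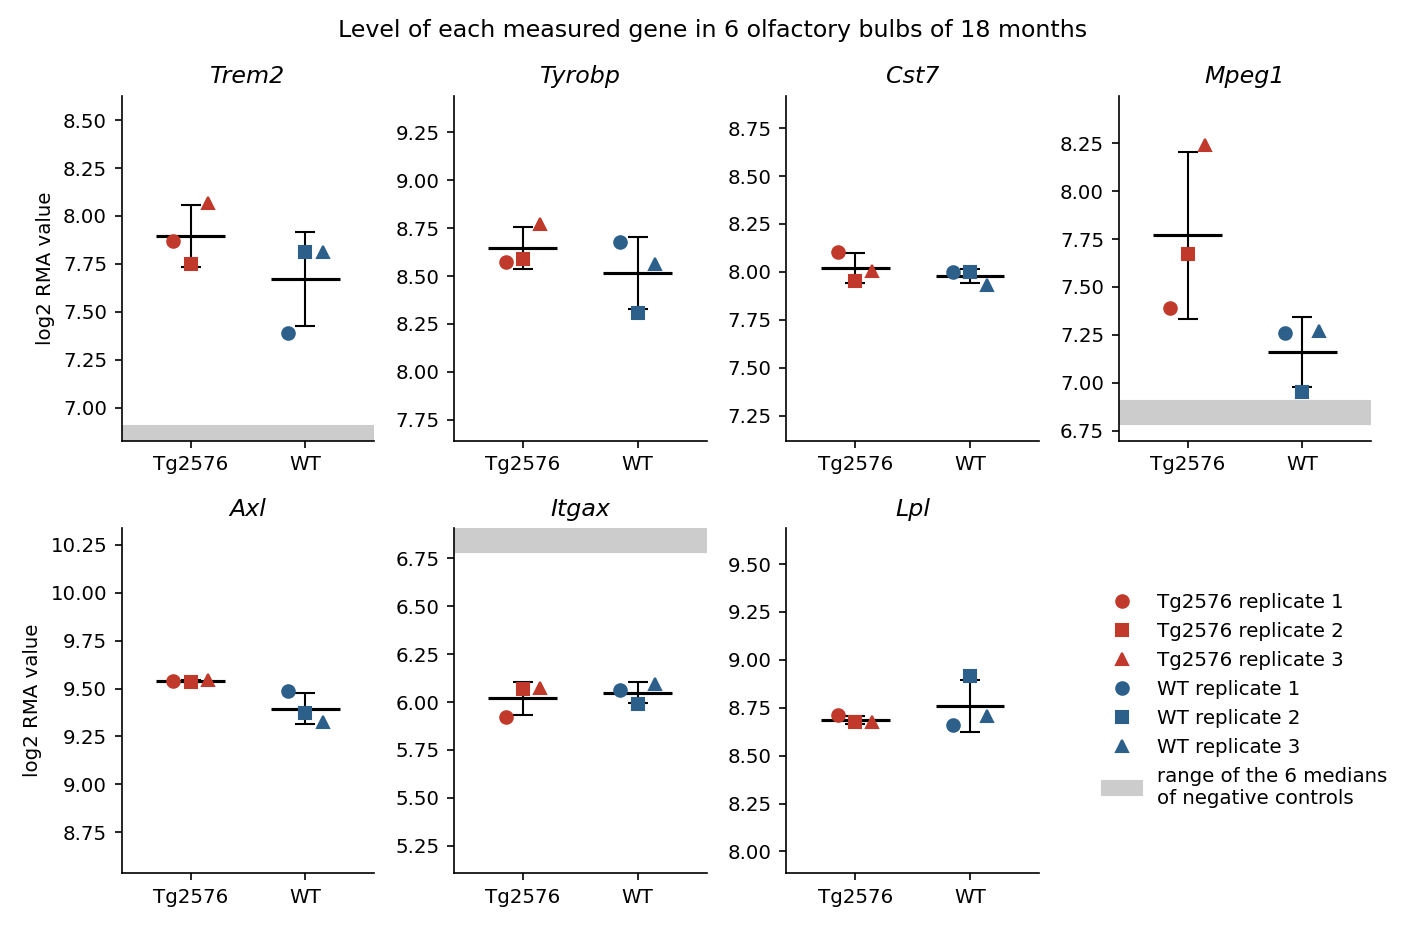
The log2 RMA value (vertical axis, the same span in each panel) of the 7 measured genes in 3 Tg2576 and 3 WT OBs. Points are arrays, horizontal bars are group means with SD as error bars, and the grey band spans the medians of the negative controls; only Mpeg1 and Axl have all Tg2576 points above all WT points, and Itgax lies under the band.

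Trem2 had levels of 7.87, 7.75 and 8.07 in Tg2576 OBs, against 7.39, 7.81 and 7.81 in WT OBs. The groups overlapped, and the lowest value was that of WT replicate 1. The means were 7.89 ± 0.16 in Tg2576 and 7.67 ± 0.25 in WT (SD, n = 3 each), a difference of 0.22 (SE 0.14, 95% confidence interval -0.084 to 0.53, limma adjusted p = 0.692). Leaving out WT replicate 1 gave a difference of 0.083, and leaving out Tg2576 replicate 3 gave 0.14.

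Tyrobp, the adaptor that carries the signal of TREM2, was at 8.57, 8.59 and 8.77 in Tg2576 and at 8.68, 8.31 and 8.56 in WT OBs. Here WT replicate 2 was the lowest array and WT replicate 1 was the second highest, so receptor and adaptor did not share their low array. The difference was 0.13 (SE 0.11, 95% confidence interval -0.12 to 0.38, limma adjusted p = 0.809), and it was 0.027 without WT replicate 2, 0.067 without Tg2576 replicate 3 and 0.21 without WT replicate 1.

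Mpeg1, which encodes perforin-2, a pore-forming protein of phagocytes, had the largest difference of the measured genes. Its levels were 7.39, 7.67 and 8.24 in Tg2576 OBs and 7.26, 6.95 and 7.27 in WT OBs. The groups did not overlap, but Tg2576 replicate 1 lay just above the highest WT array and Tg2576 replicate 3 stood well above the other two. The means were 7.77 ± 0.43 in Tg2576 and 7.16 ± 0.18 in WT (SD, n = 3 each). The difference of 0.61 (SE 0.20) corresponds to a fold of 1.52, with a 95% confidence interval from 1.11 to 2.09, and did not reach the p threshold (limma adjusted p = 0.496). Mpeg1 was called without Tg2576 replicate 1 (difference 0.80, limma adjusted p = 0.537), and its difference was 0.37 without Tg2576 replicate 3, where it was not called (limma adjusted p = 0.652). Its adjusted p ranged from 0.391 to 0.670 over the alternatives tried.

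Other leukocyte genes were also high in Tg2576 replicate 3. The list of 17 measured blood leukocyte genes lay on average -0.019, 0.023 and 0.35 from its WT mean in Tg2576 replicates 1 to 3, against -0.083, 0.038 and 0.045 in WT replicates 1 to 3. Without Ngp and S100a8, a choice made after their values were seen, the mean of the other 15 genes in Tg2576 replicate 3 was 0.20. Of the 17 genes, 7 (41.2%) had their highest value in Tg2576 replicate 3, as did 15.7% of all probe sets. That share was 53.8% for olfactory sensory neuron markers, 42.9% for oligodendrocyte markers and 22.2% for astrocyte markers. Of the 17, 5 had their highest value in WT replicate 2, and 4 (Ccr2, Xcr1, Clec9a and Cd3g) lay under the negative control median in every array. Ngp and S100a8, both neutrophil genes, lay far above their WT means in that array and are named after their values were seen. Ngp, a neutrophil granule protein, was at 6.70, 7.06 and 8.14 in Tg2576 and 6.37, 6.25 and 7.23 in WT OBs, and S100a8, a subunit of calprotectin, was at 5.31, 5.55 and 6.89 in Tg2576 and 5.07, 5.42 and 5.75 in WT OBs. Both were highest in the array in which Mpeg1 was highest. S100a8 lay under the negative control median in 5 of the 6 arrays and Ngp in 3, and differences are compressed at such levels. The other neutrophil genes of the list, S100a9 and Camp, lay under it in no array and are not described here. The values of Ngp and S100a8 therefore do not stand for neutrophil genes as a group. The part of blood cells in the Mpeg1 difference was not tested.

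Cst7 encodes cystatin F, an inhibitor of lysosomal cysteine proteases and a frequent marker of plaque microglia. Its levels were 8.1044, 7.9532 and 8.0019 in Tg2576 and 7.9998, 7.9990 and 7.9332 in WT OBs. All 6 arrays fell within a narrow range in which the groups overlapped, and the difference was 0.042 (SE 0.077, 95% confidence interval -0.13 to 0.22, limma adjusted p = 0.930). Without single arrays it ranged from 0.00019 (without Tg2576 replicate 1) to 0.076 (without Tg2576 replicate 2), and was 0.020 without WT replicate 3.

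Axl, a receptor tyrosine kinase that recognises dying cells through the ligand GAS6, was at 9.54, 9.54 and 9.55 in Tg2576 OBs and at 9.49, 9.37 and 9.33 in WT OBs. The Tg2576 arrays were nearly equal and all above WT. The difference of 0.15 (SE 0.076, 95% confidence interval -0.028 to 0.32) did not pass the thresholds (limma adjusted p = 0.644) and stayed between 0.11 and 0.19 without single arrays.

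Itgax encodes CD11c, an integrin chain of dendritic cells that plaque microglia also express. Its levels of 5.92, 6.07 and 6.07 in Tg2576 OBs and 6.06, 5.99 and 6.09 in WT OBs lay under the median of the negative controls in every array. Differences are compressed at such levels, so the value of -0.028 (SE 0.080, 95% confidence interval -0.21 to 0.15) holds little about the transcript. Without single arrays it ranged from -0.058 (without WT replicate 2) to 0.021 (without Tg2576 replicate 1), and it was 0.0053 after a further cyclic loess normalization.

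Lpl, the lipase that releases fatty acids from lipoproteins, was at 8.71, 8.67 and 8.68 in Tg2576 OBs, against 8.66, 8.92 and 8.71 in WT OBs. The groups overlapped and WT replicate 2 alone stood above the other arrays. The difference was -0.073 (SE 0.088, 95% confidence interval -0.27 to 0.13, limma adjusted p = 0.872), 0.0042 without WT replicate 2 and -0.12 without WT replicate 1.

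For 4 genes, Cst7, Axl, Itgax and Lpl, the confidence interval ended below the higher fold threshold, with the limit on Itgax named above. The intervals of Trem2, Tyrobp and Mpeg1 reached that threshold, so a rise past it was not separable from no difference in Trem2 and Tyrobp at 3 arrays per genotype. No interval reached the lower threshold. The mean level of Mpeg1 lay above 62.4% of the negative controls, that of Trem2 above 68.5% and that of Cst7 above 71.8%. For Tyrobp, Lpl and Axl these shares were 81.1%, 83.4% and 91.3%. Differences of Mpeg1, Trem2 and Cst7 may therefore also be compressed, and the narrow interval of Cst7 is limited by this.

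**Figure D2:**
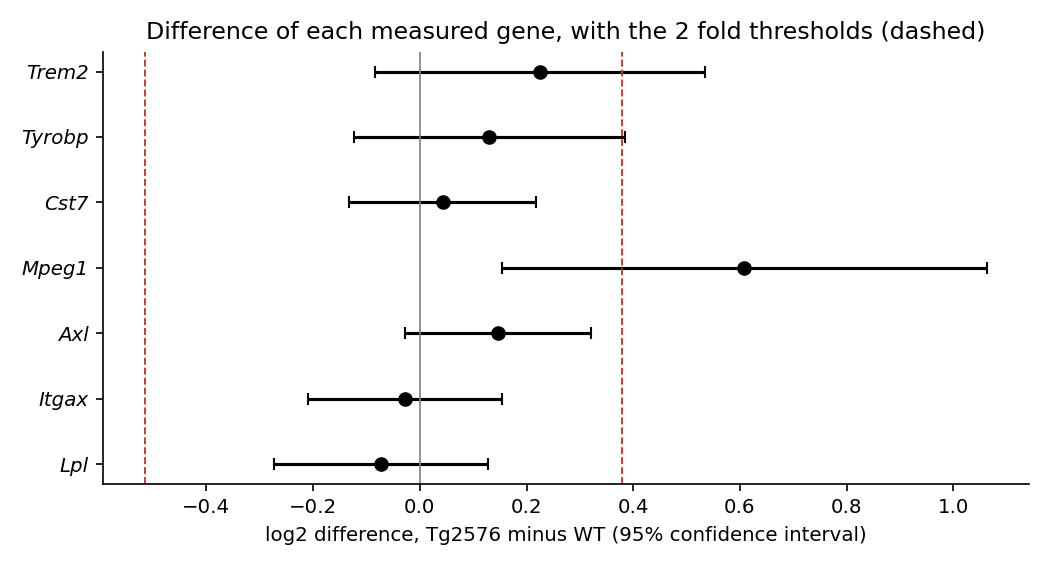
The log2 difference between Tg2576 and WT OBs (horizontal axis) of each measured gene as a point, with its 95% confidence interval from limma as a bar. The dashed lines mark the thresholds of log2 -0.51 and 0.38; the interval of Mpeg1, 0.15 to 1.06, is the only one that does not reach 0.

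**Figure D3:**
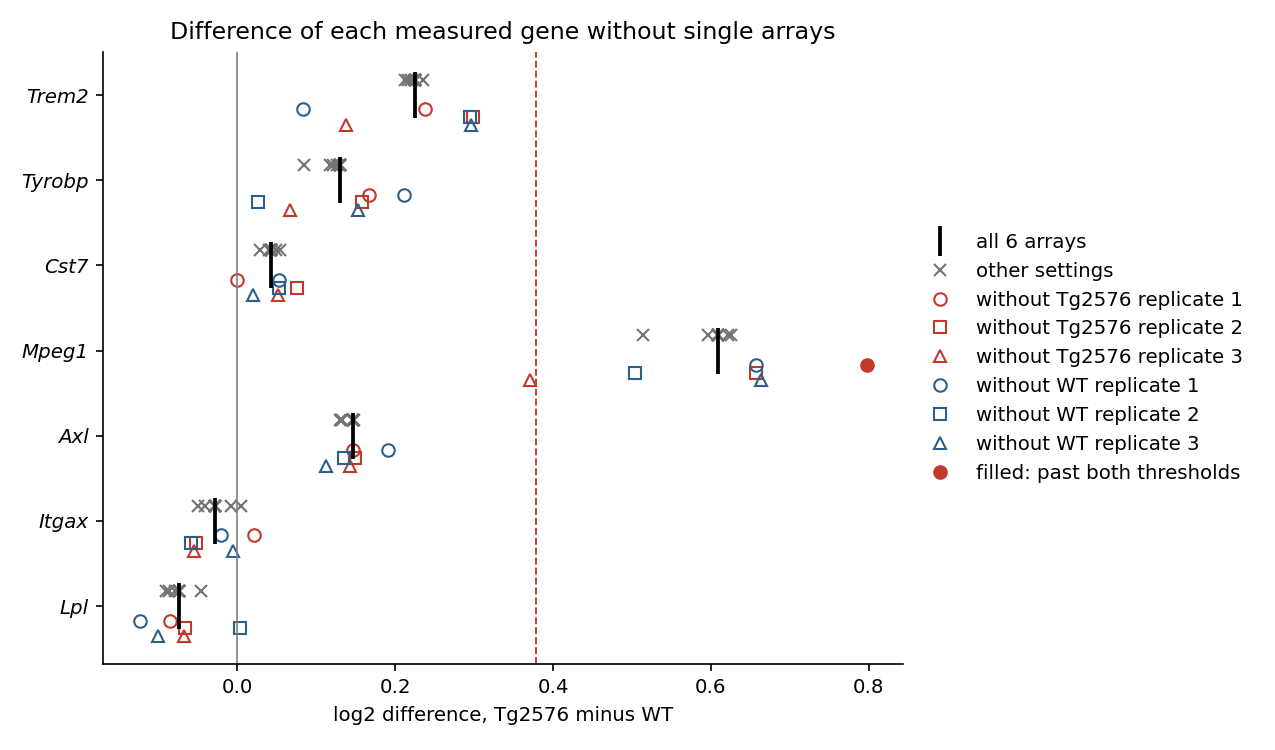
The log2 difference between Tg2576 and WT OBs (horizontal axis) of each measured gene with all 6 arrays (black bar), under other settings of the analysis (crosses) and without each array in turn (symbols). The dashed line is the higher fold threshold; the filled symbol of Mpeg1, 0.80 without Tg2576 replicate 1, is the only difference past both thresholds among those that leave out an array.

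The ligands, signal carriers, sheddases and relatives of TREM2 form a list of 25 genes, of which 23 were measured. None was called by either limma or limma-trend, 2 had an unadjusted p under 0.05, both higher in Tg2576, and the median was 0.098. Leaving out Tg2576 replicate 3 gave a median of 0.020, and leaving out WT replicate 1 gave 0.062. Adam17, which encodes a protease that sheds TREM2 from the cell surface, was at 9.080, 9.072 and 9.204 in Tg2576 and 8.998, 8.592 and 8.863 in WT OBs. Its Tg2576 arrays all lay above WT, with a difference of 0.30 (SE 0.11, limma adjusted p = 0.533), and it was called without WT replicate 1 (0.39). Trem1, a receptor of the same family on myeloid cells, differed by 0.29 (SE 0.11, limma adjusted p = 0.547) from a WT mean under the negative control medians, and was called without Tg2576 replicate 1 (0.39). Inpp5d, the phosphatase SHIP1 that restrains the signal of TYROBP, differed by 0.17 (SE 0.078, limma adjusted p = 0.597), with all Tg2576 arrays above WT.

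Of these, Apoe, Clu, Syk and Spi1 are given for their place in the pathway, a choice made after their values were seen. Apoe, a lipoprotein ligand of TREM2, was at 12.45, 12.45 and 12.46 in Tg2576 and at 12.20, 12.47 and 12.12 in WT OBs, where WT replicate 2 overlapped the Tg2576 arrays (difference 0.19, SE 0.10). Clu, another such ligand, differed by 0.10 (SE 0.078). Syk, the kinase that binds TYROBP, differed by -0.035 (SE 0.11), and Spi1, the gene of the myeloid transcription factor PU.1, by 0.22 (SE 0.17). Apoe and Clu are also expressed by astrocytes, and the 9 astrocyte markers lay on average 0.15, 0.23 and 0.19 above their WT mean in Tg2576 replicates 1 to 3, against 0.019, 0.011 and -0.030 in the WT arrays. The part of astrocytes in the values of Apoe and Clu was not tested.

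Partners of the single genes were measured for 27 of 29, such as the ligand and sister receptors of AXL, the partner chains of CD11c, the cofactors of LPL and the proteases that cystatin F inhibits. Neither limma nor limma-trend called any of them. An unadjusted p under 0.05 was found for 1 in each direction, and the median was 0.042. That median was below 0 without Tg2576 replicate 3 (-0.023) or WT replicate 2 (-0.0089), and was 0.017 when Tg2576 replicate 2 was left out and 0.023 when WT replicate 3 was left out. Lmf1, which lets LPL fold in the endoplasmic reticulum, was at 9.32, 9.42 and 9.42 in Tg2576 and 9.20, 9.24 and 9.17 in WT OBs, without overlap (difference 0.18, SE 0.074, limma adjusted p = 0.559). Prf1, the perforin of cytotoxic lymphocytes, differed by -0.28 (SE 0.090, limma adjusted p = 0.492) and Clec4n, the receptor Dectin-2, by -0.27 (SE 0.13, limma adjusted p = 0.617). Both Prf1 and Clec4n lay under the negative control median in every array.

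A list of 31 genes known from plaque microglia, besides the pathway genes, shares Apoe and Ctsl with the lists above. Of the 31, 29 were measured and none was called by either limma or limma-trend. At an unadjusted p under 0.05, 4 were higher in Tg2576 and none lower, and the median was 0.085. Cd9, a tetraspanin, was at 10.22, 10.39 and 10.46 in Tg2576 and at 10.19, 9.98 and 10.01 in WT OBs (difference 0.30, SE 0.096, limma adjusted p = 0.495). B2m, the light chain of MHC class I, was at 10.68, 10.55 and 11.35 in Tg2576 and at 10.38, 9.95 and 10.45 in WT OBs. It showed the same arrangement as Mpeg1, with no overlap and with Tg2576 replicate 3 well above the rest (difference 0.60, SE 0.21, limma adjusted p = 0.518), and was called without Tg2576 replicate 2 (0.76). Csf1, a growth factor of microglia and macrophages, differed by 0.24 (SE 0.097, limma adjusted p = 0.562). The 4th gene was Cd63, a tetraspanin of late endosomes, which differed by 0.20 (SE 0.087). Cd9, Cd63 and B2m are expressed by many cell types of the bulb besides microglia.

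Markers of microglia and related cells stood as follows. In the list of 16 homeostatic microglia genes, limma and limma-trend called none. An unadjusted p under 0.05 was found for 2 genes with higher and 1 with lower levels in Tg2576, and the median was 0.066, or 0.12 without Tg2576 replicate 3. Slco2b1, an organic anion transporter, differed by 0.31 (SE 0.12) and Csf1r, the receptor of CSF1, by 0.22 (SE 0.092), while Olfml3, a secreted microglial protein, differed by -0.34 (SE 0.13). Slco2b1 was called without WT replicate 3 (0.42). For the 17 genes shared by microglia and macrophages the counts were none called by limma or limma-trend and 2 higher at an unadjusted p under 0.05, with a median of 0.080, which was 0.012 without WT replicate 3, 0.039 without Tg2576 replicate 3 and 0.14 without Tg2576 replicate 1. Cd14, a coreceptor for bacterial lipids, was at 8.30, 8.34 and 8.35 in Tg2576 and at 8.12, 8.17 and 7.87 in WT OBs, without overlap (difference 0.28, SE 0.095). The 2 genes of this count were Cd14 and Csf1r, and Csf1r was also counted in the homeostatic list above. Laptm5, a lysosomal membrane protein of blood cells and microglia, was outside that count and differed by 0.24 (SE 0.12).

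The 10 markers of macrophages at the borders of the brain had a median of -0.012, with none called by limma or limma-trend and none at an unadjusted p under 0.05. Without single arrays this median lay between -0.070 (without WT replicate 1) and 0.059 (without WT replicate 2), and it was also above 0 without Tg2576 replicate 2 (0.021) or Tg2576 replicate 3 (0.0039). Ms4a7, a membrane protein of these cells, differed by 0.43 (SE 0.20) and was called without WT replicate 1 (0.62). Folr2, a folate receptor, differed by -0.23 (SE 0.12), and Cbr2, a carbonyl reductase, by 0.84 (SE 0.72), or by 1.79 without Tg2576 replicate 2, where it was called. In the blood leukocyte list none was called by limma or limma-trend, 1 was higher at an unadjusted p under 0.05, and the median was 0.089. Its value was -0.019 when Tg2576 replicate 3 was left out, 0.055 without WT replicate 1 and 0.14 without WT replicate 2. The gene with the low p was Xcr1, a chemokine receptor of dendritic cells (0.29, SE 0.088), which lay under the negative control median in every array. Flt3, a growth factor receptor, differed by 0.22 (SE 0.099) and Zbtb46, a transcription factor of dendritic cells, by -0.18 (SE 0.090).

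By array, the 7 measured genes lay on average 0.084, 0.10 and 0.26 above their WT mean in Tg2576 replicates 1 to 3, against 0.00047, -0.026 and 0.026 in WT replicates 1 to 3. The highest array was Tg2576 replicate 3, in which 4 of the 7 genes had their highest value. Without Mpeg1, left out after its values were seen, the other 6 genes lay at 0.059, 0.034 and 0.13 in the Tg2576 arrays, against -0.016, 0.0041 and 0.012 in the WT arrays. Homeostatic microglia genes lay at 0.044, 0.069 and 0.049 in the Tg2576 arrays, against 0.0085, -0.046 and 0.038 in the WT arrays, and genes shared by microglia and macrophages at 0.014, 0.016 and 0.21 in the Tg2576 arrays, against 0.0082, 0.10 and -0.11 in the WT arrays, each in the order of the replicates. Tg2576 replicate 3 was thus highest for the pathway genes, the shared macrophage genes and the leukocyte genes, but not for the homeostatic genes. It was also highest for markers of olfactory sensory neurons (0.56), oligodendrocytes (0.39) and ensheathing glia (0.26). For astrocyte, endothelial, mitral and tufted cell, and mucosa markers another Tg2576 array was highest.

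Some markers of other cells passed the thresholds. Olfactory sensory neurons send their axons into the OB. All 13 differences of their markers were above 0, and 4 of these markers were called higher in Tg2576 OBs. They were Stoml3, a stomatin-like membrane protein (1.00, SE 0.16), Omp, the olfactory marker protein (0.88, SE 0.17), Adcy3, the adenylate cyclase of olfactory cilia (0.53, SE 0.11), and Gnal, the olfactory G protein subunit (0.48, SE 0.12). By array the 13 markers lay at 0.46, 0.28 and 0.56 in Tg2576, against -0.097, 0.17 and -0.068 in WT. Calls were also made for 2 of 8 ensheathing glia markers, Frzb (0.58, SE 0.097) and Sox10 (0.38, SE 0.10), 1 of 9 astrocyte markers, Gfap (0.43, SE 0.11), 1 of 7 oligodendrocyte markers, Cldn11 (0.40, SE 0.099), 1 of 8 endothelial markers, Cldn5 (0.67, SE 0.13), and 1 of 7 mitral and tufted cell markers, Tbx21 (0.48, SE 0.14). Without single arrays, Stoml3, Omp, Adcy3, Frzb and Cldn5 were called in 6 of 6 fits, and Gnal, Sox10, Gfap, Cldn11 and Tbx21 in 2 of 6. With all arrays the limma adjusted p of these called markers lay between 0.332 and 0.446.

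The 17 markers of the olfactory mucosa lay at 1.42, -0.17 and 1.32 in the Tg2576 arrays, against -0.24, -0.076 and 0.32 in the WT arrays. They were high in Tg2576 replicates 1 and 3. None was called, the smallest p values being those of Fetub (1.12, SE 0.34), Bpifb4 (1.92, SE 0.63) and Sult1c1 (1.81, SE 0.67), and 6 were higher at an unadjusted p under 0.05, with 0 calls by limma-trend. Without Tg2576 replicate 2, the Tg2576 array that was low for this list, 10 of the 17 were called. In that fit 201 of the 22206 probe sets were called higher and 32 lower. Leaving out any other single array gave 0 calls among the 17. The part of any of these cells in the values of the pathway genes was not tested.

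**Figure D4:**
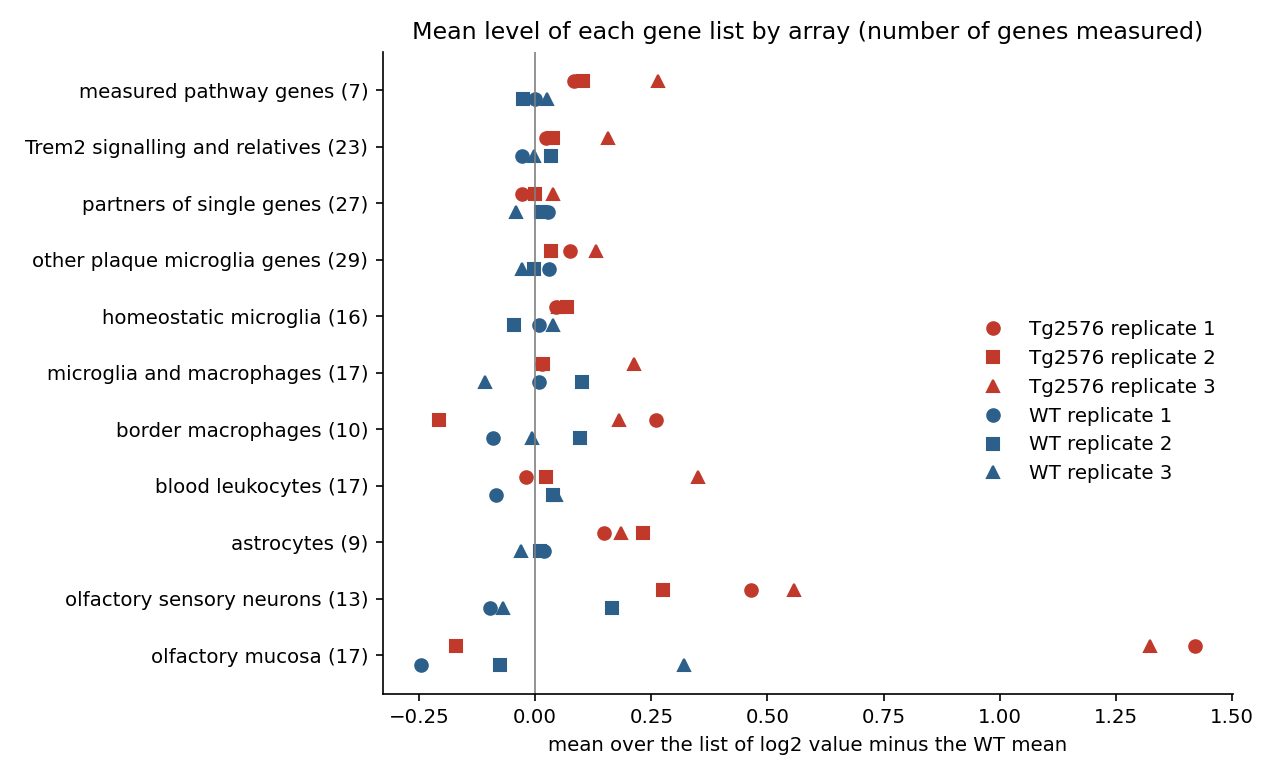
The mean over each gene list of the log2 value minus the gene's WT mean (horizontal axis), for each of 3 Tg2576 (red, upper row) and 3 WT (blue, lower row) arrays, with the number of genes measured in brackets. The measured pathway genes and the leukocyte genes are highest in Tg2576 replicate 3 (0.26, or 0.13 without Mpeg1, and 0.35, or 0.20 without Ngp and S100a8), and the mucosa markers in Tg2576 replicates 1 and 3 (1.42 and 1.32). Olfactory sensory neuron markers are also highest in Tg2576 replicate 3 (0.56).

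The genes whose pattern was most like that of Trem2 over the 6 arrays, by Pearson's r among 14090 probe sets with 1 symbol and a mean of at least 7, were Abcc10 (0.995), Fcer1g (0.991), Pbdc1 (0.983), Vegfd (0.977) and Gask1a (0.974). Fcer1g encodes the γ chain of Fc receptors, an adaptor of microglia and other myeloid cells, and was lowest in WT replicate 1 (7.21) and highest in Tg2576 replicate 3 (7.98), as Trem2 was. For the mean of the 7 genes, of which Mpeg1 varies most, the nearest genes were Lcp1 (0.988), which encodes the actin-bundling L-plastin of leukocytes, Tap2 (0.983), a subunit of the peptide transporter of MHC class I loading, Slc38a7 (0.977), H2-T-ps (0.971) and Brinp3 (0.971). The points are the same 6 arrays, and these genes were picked as the highest of all candidates, so the values are a description of these arrays and no test.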

How the data were processed

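RNA of 3 Tg2576 and 3 WT OBs was hybridised to Affymetrix mouse Clarion S arrays, and the authors deposited log2 values, 1 per probe set and array, after RMA, which corrects background, normalizes by quantiles and summarises probes. The version of RMA and which arrays were normalized together are not given in the sources used here. Of 28815 rows, 63 spike-in and 6546 normalization controls were left out. Genotypes were compared over 22206 probe sets with limma 3.58.1 in R 4.3.3, with groups taken from the sample labels. The labels name separate samples, and the methods give 3 mice per condition. Adjusted p values are Benjamini-Hochberg over all probe sets. The thresholds are an unadjusted p under 0.01, from the study's methods, and the fold limits of 1.3 and 0.7, from the title of a supplementary sheet. The genes, the lists of related genes and the tests were chosen with earlier results of these data known. Some genes belong to several lists, so the values of the lists are not independent. In each list, genes past the thresholds and otherwise the 3 of smallest p are named, and any other gene was chosen after its value was seen. The fit was tested on simulated data. Alternatives were other normalizations, filters, moderation, array weights, thresholds, a replicate block and leaving out each array, with list means without single genes added after the data were seen. Figures were drawn with matplotlib 3.10.9 in Python 3.11.15.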

Additional observations from a re-analysis of the deposited data

How the results depend on the processing

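Over 18 alternative settings, 121 of 126 differences of the 7 measured genes kept their sign and their side of the thresholds. Mpeg1 passed them in 2, and 3 changed sign, namely Itgax after a further cyclic loess normalization (0.0053) and without Tg2576 replicate 1 (0.021; range without single arrays -0.058 to 0.021) and Lpl without WT replicate 2 (range -0.12 to 0.0042), all close to 0. The differences of these genes could not change under limma-trend, the filters, the replicate block or a mean over the probe sets of a gene. Other thresholds were applied to the same fit. The count of 121 was therefore in part fixed in advance and is no measure of robustness. The number of the 7 measured genes called was 0 to 1 without single arrays. Their median difference was 0.084 with array weights and 0.053 to 0.15 without single arrays. Over all probe sets, 155 were called higher and 22 lower. When no fold was required, 280 were called higher and 188 lower, with a lower threshold equal to the higher one 75 were lower, and with Benjamini-Hochberg adjustment at 5% 0 were higher and 0 lower in limma (1896 at an unadjusted p under 0.05, 9 with limma-trend). Leaving out single arrays gave 145 to 202 higher and 23 to 47 lower, with 47 without WT replicate 1. Deviations from the group means had r = 0.036, -0.038 and -0.043 between samples of equal replicate number. Between samples of unequal number r lay from -0.13 to 0.15. These values cannot show whether samples of equal number shared a litter or a processing step, which the labels do not give. With the replicate block 1 of the 7 genes was called, Mpeg1 (limma adjusted p = 0.456), with 200 probe sets higher and 25 lower. In the related lists the block also called B2m (0.60) and Ngp (0.68), both higher in Tg2576. The counts of calls in the gene lists moved in 43 of 252 cases, and their medians in 43. No cause of these shifts was tested. Itgax and other genes near the negative controls are limited by signal over background.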
